A study of Homo sapiens with 8 samples.

Results

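The chromatin occupancy of the fusion protein ETO2-GLIS2 was compared between 12 h and 48 h of induction in U937 cells, a monocytic leukemia cell line. The binding regions, or peaks, of the 2 ETO2-GLIS2 ChIP-seq libraries on chromosomes 1 to 22 were taken as the members, which gave 28019 peaks at 12 h and 29784 peaks at 48 h. Together these are 57803 of the 235408 peaks of the whole series, which also holds the fusion protein AML1-ETO at the same times. A peak was called kept if it shared at least 1 bp with a peak of the other time point, and otherwise 12 h only or 48 h only.

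Both libraries came from 1 stable U937 line, a single clone of the U937-EG type (EG over-expressed per the labels) that carries an N-terminally HA-tagged ETO2-GLIS2 cDNA in a doxycycline-inducible retroviral vector. The cells received doxycycline at 5 µg/ml for 12 or 48 h, and anti-HA beads precipitated the tagged protein. The titles and the treatment tags give both times, whereas the protocol text of all samples names 48 h only. There was 1 ChIP library for each time, with input libraries but without an uninduced or an empty-vector ChIP library, so a change with time and a difference between 2 libraries cannot be told apart. No test and no p-value is given, and the exact 95% Clopper-Pearson intervals in parentheses cover counting error only. According to the library statistics of the study, the 12 h ChIP library was sequenced more deeply than the 48 h library. The peak lists hold no read numbers and no expression values, so depth could not be equalised and the identity of the cells was not checked here.

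ETO2-GLIS2 joins the corepressor ETO2 (also called CBFA2T3) to the zinc fingers of GLIS2 and is known from an inversion of chromosome 16 in pediatric acute megakaryoblastic leukemia. The ETO2 part binds E-proteins and histone deacetylase complexes, and the GLIS2 zinc fingers read a G-rich DNA sequence. RUNX1, ETS factors, AP-1 factors and E-proteins are known partners at regulatory regions of blood cells, which is why their motifs were searched here along with that of GLIS2.

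The DNA under selected summits gives examples of what the 2 time points held, and the windows are not a representative sample. Each window below is 120 bp of GRCh37, plus strand, around a summit, and capitals mark matches to the core GLIS motif TGGGGGG, the Runt motif (TGTGGT or TGCGGT), the AP-1 motif (TGACTCA or TGAGTCA) and the E-box CAGCTG on either strand. The first window is the strongest peak at both times (chr20:30628288-30628407, intergenic). It had a 165-fold enrichment over background at 12 h and 184-fold at 48 h, and its core GLIS match lies next to a pair of E-boxes. The second lies near the start of DENND4B (chr1:153918586-153918705), an activator of Rab GTPases, and ranked 2 at 12 h and 5 at 48 h. The intron region on chromosome 5 that ranked 3 at 12 h and 2 at 48 h was left out. Its summit windows hold none of these motifs.
chr20 kept: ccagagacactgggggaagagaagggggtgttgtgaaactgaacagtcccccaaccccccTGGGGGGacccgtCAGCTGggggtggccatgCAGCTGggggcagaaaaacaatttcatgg
DENND4B kept: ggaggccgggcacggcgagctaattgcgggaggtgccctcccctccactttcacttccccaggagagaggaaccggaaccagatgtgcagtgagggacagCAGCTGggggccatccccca

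The next 3 windows were 12 h only and were chosen, after their values were seen, among the strongest such peaks with at least 5-fold enrichment. They lie in introns by PPIAP40 (chr11:3915580-3915699, 22.7-fold) and by RNU6-572P (chr5:138582154-138582273, 21.0-fold), each named for the nearest start site, and within 1 kb of a start site of LARP4B (chr10:867284-867403, 19.3-fold), an RNA-binding protein. They were shown because they hold a GLIS, an AP-1 and a pair of Runt matches, respectively.
PPIAP40 12 h only: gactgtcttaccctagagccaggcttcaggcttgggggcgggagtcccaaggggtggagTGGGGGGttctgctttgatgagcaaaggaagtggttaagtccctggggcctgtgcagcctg
RNU6-572P 12 h only: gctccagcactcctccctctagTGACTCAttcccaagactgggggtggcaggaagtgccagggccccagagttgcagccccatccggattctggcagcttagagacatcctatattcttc
LARP4B 12 h only: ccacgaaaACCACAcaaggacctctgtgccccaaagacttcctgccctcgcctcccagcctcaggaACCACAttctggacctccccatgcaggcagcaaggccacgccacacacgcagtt

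The last 3 windows were 48 h only. The windows at PRCC and DIS3L2 were chosen after their values were seen, for the motifs they hold. MTF2 (chr1:93544661-93544780, 18.8-fold), which encodes an accessory subunit of Polycomb repressive complex 2, was the strongest 48 h only peak and has no match to these motifs in the window. The window at PRCC (chr1:156764791-156764910, 14.9-fold), a gene known as a fusion partner in renal cancer, holds GLIS, Runt and E-box matches. PRCC had another, stronger promoter summit at both times (rank 1976 at 12 h and 1626 at 48 h). The window in an intron of DIS3L2 (chr2:233184150-233184269, 15.9-fold), an RNA exonuclease, holds a Runt match and an E-box.
MTF2 48 h only: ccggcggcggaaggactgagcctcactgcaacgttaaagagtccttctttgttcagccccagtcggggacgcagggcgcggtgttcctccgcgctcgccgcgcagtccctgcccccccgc
PRCC 48 h only: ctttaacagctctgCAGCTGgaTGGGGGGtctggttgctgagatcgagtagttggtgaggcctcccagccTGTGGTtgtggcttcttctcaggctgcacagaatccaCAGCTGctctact
DIS3L2 48 h only: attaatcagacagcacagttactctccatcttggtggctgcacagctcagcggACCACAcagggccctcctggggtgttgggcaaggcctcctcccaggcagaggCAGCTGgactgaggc

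To see how much of the binding was shared, the lists were overlapped in both directions. Of the 12 h peaks, 16938 or 60.5% (59.9 to 61.0) overlapped a 48 h peak, and of the 48 h peaks, 16217 or 54.4% (53.9 to 55.0) overlapped a 12 h peak. The remainder were 11081 peaks found at 12 h only and 13567 found at 48 h only. The shared portion depended on peak strength, measured by the −log10 q of the peak caller. In the strongest 10% of the 12 h list 99.6% (99.3 to 99.8) of the peaks were kept, and in the weakest 10% 18.7% (17.3 to 20.2). In the 48 h list these shares were 100% (2978 of 2978 peaks) and 12.8% (11.6 to 14.0). The plot of the kept share by strength shows that the lists part mainly in their weaker portions.

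**Figure D1:**
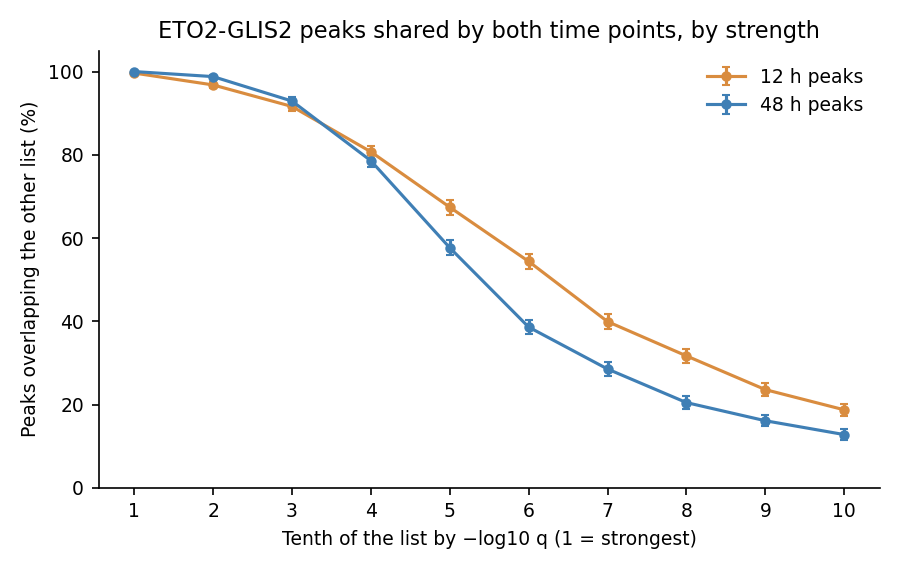
Share of ETO2-GLIS2 peaks that overlap the other time point (y axis, %) in steps of 10% of each list from the strongest to the weakest −log10 q (x axis), for 12 h and 48 h peaks, with exact 95% intervals. Both curves start above 99% and end below 20%.

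A −log10 q of at least 10 was met by 10926 peaks at 12 h and 10842 at 48 h, called strong peaks here. When both lists were limited to them, 81.6% (80.9 to 82.4) of the 12 h peaks and 80.5% (79.7 to 81.2) of the 48 h peaks were kept. Against the whole list of the other time point, 92.6% (92.1 to 93.1) and 94.5% (94.1 to 94.9) of them were kept, which left 805 strong 12 h only peaks and 594 strong 48 h only peaks. With the 28019 strongest peaks of each list, 59.8% (59.3 to 60.4) of 12 h and 57.1% (56.6 to 57.7) of 48 h peaks were kept. With the 5000 strongest of each, the shares were 85.0% (84.0 to 86.0) and 83.4% (82.4 to 84.5). In these settings the shares of the times lay closer together than in the whole lists, and for strong peaks against the whole other list the 48 h share was the higher.

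Peaks of a single time point were small. The median width was 259 bp (257 to 262) for 12 h only and 279 bp (277 to 281) for 48 h only peaks, against 595 bp (586 to 605) and 684 bp (673 to 694) for kept peaks at 12 h and 48 h. The median fold enrichments in the same order were 4.04, 4.31, 7.46 and 8.62. Ranks below the middle of the list were held by 83.9% of the 12 h only and 84.2% of the 48 h only peaks. Many lay beside binding of the other time point, since 25.5% (24.7 to 26.4) of 12 h only peaks were within 1 kb of a 48 h peak and 30.0% (29.2 to 30.8) of 48 h only peaks within 1 kb of a 12 h peak. Regions were also divided differently, in that 747 peaks at 12 h overlapped more than 1 peak at 48 h (at most 4), and 1338 peaks at 48 h overlapped more than 1 peak at 12 h (at most 8).

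The location of the summits differed between the classes. A summit within 1 kb of an annotated start site was called promoter and all others distal. Promoters held 54.6% (53.9 to 55.4) of kept peaks by the 12 h summit and 54.2% (53.5 to 55.0) by the 48 h summit. They held only 24.0% (23.2 to 24.8) of 12 h only and 30.6% (29.8 to 31.4) of 48 h only peaks. Introns took most of the remainder, with 45.6% of 12 h only and 41.9% of 48 h only peaks against 26.6% and 26.7% of kept peaks. Among strong peaks the gap was wider, with 18.6% (16.0 to 21.5) promoters, or 150 of 805, in 12 h only peaks and 44.4% (40.4 to 48.5), or 264 of 594, in 48 h only peaks. With the 5000 strongest of each list, promoters were 30.4% (27.1 to 33.8) of the 751 unshared 12 h peaks and 69.2% (65.9 to 72.3) of the 828 unshared 48 h peaks.

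**Figure D2:**
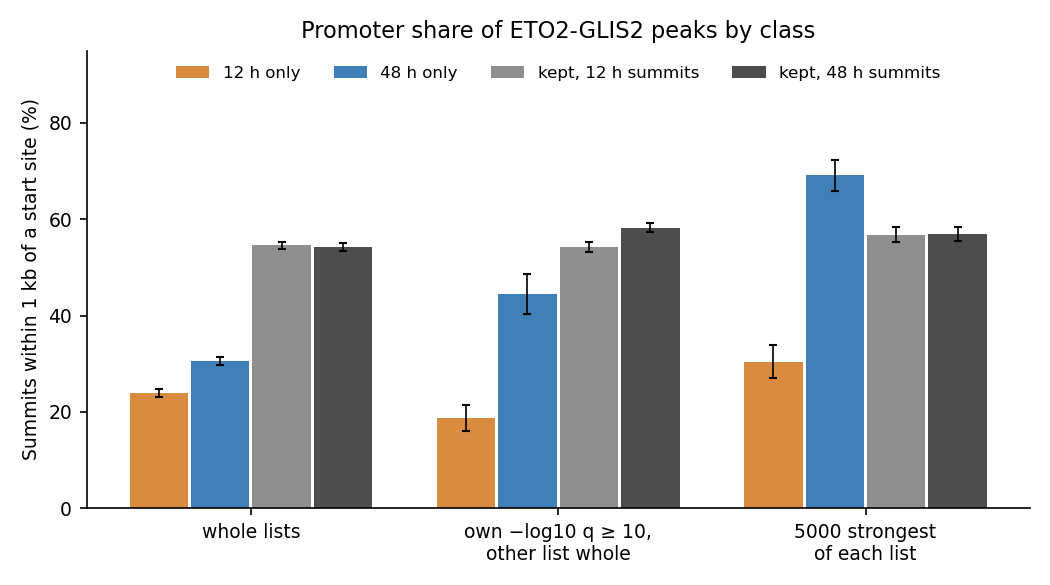
Share of summits within 1 kb of a start site (y axis, %) for 12 h only, 48 h only and kept ETO2-GLIS2 peaks under 3 choices of lists (x axis), with exact 95% intervals. The bar for 48 h only stands above that for 12 h only in each choice, by the most among the 5000 strongest peaks.

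GC content moved with these classes. The mean GC of the 200 bp at the summit was 50.3% ± 9.35 (SD over peaks, n = 11081) for 12 h only, 54.1% ± 10.6 (n = 13567) for 48 h only and 62.2% ± 10.4 (n = 16938) for kept peaks at 12 h. For strong peaks of a single time it was 52.7% ± 7.68 (n = 805) at 12 h and 60.4% ± 9.02 (n = 594) at 48 h. In windows of like GC the promoter shares of the whole lists came close. Under 50% GC they were 15.5% (14.5 to 16.4) for 12 h only and 16.6% (15.6 to 17.7) for 48 h only, and between 60 and 70% GC 48.5% (45.7 to 51.4) and 45.4% (43.7 to 47.0). Among strong peaks the 48 h only share was the higher in each GC class. The 12 h only and 48 h only shares were 7.84% and 11.6% under 50% GC, and 20.4% and 24.6% between 50 and 60%. Over 70% GC they were 71.4% of only 21 peaks and 90.1% of 81. The intervals overlapped in these classes. Between 60 and 70% GC the shares were 36.5% (26.3 to 47.6) and 55.2% (48.8 to 61.5), without overlap. For single-time peaks of the whole lists the promoter difference between the times therefore accompanied a difference in GC. Among strong peaks the order of the times was also seen within GC classes. How much of the difference goes with GC was not computed, and which of them it belongs to was not tested.

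The same windows were searched for motifs, with windows 1 kb to either side of the summit as background. The core GLIS motif TGGGGGG was most frequent in kept regions. It was found at 11.3% (10.7 to 12.0) of strong kept summits at 12 h, against 5.10% of their flanking windows, and at 11.2% (10.6 to 11.8) of those at 48 h, against 5.30%. Strong 12 h only summits held it in 5.59% (4.11 to 7.41, flanks 3.48%) and strong 48 h only summits in 6.40% (4.57 to 8.68, flanks 5.13%). The order was seen in promoters, with 13.0% of kept 12 h summits against 4.67% of 12 h only and 6.82% of 48 h only, and in distal regions, with 9.33% against 5.80% and 6.06%. In windows of 60 to 70% GC, a class of high GC, the whole lists gave 11.9% (11.0 to 12.8) for kept 12 h, 9.19% (7.61 to 11.0) for 12 h only and 10.3% (9.30 to 11.3) for 48 h only summits. Over 70% GC the values were 12.3% (11.3 to 13.3), 4.05% (2.17 to 6.83) and 6.54% (4.89 to 8.53). Among strong summits the kept 12 h share was highest in each GC class, with overlapping intervals below 70% GC. Between 50 and 60% GC it was 9.03% (8.03 to 10.1), against 6.87% (4.58 to 9.84) for 12 h only and 5.59% (2.71 to 10.0) for 48 h only. Strong kept 12 h peaks had a median −log10 q of 32.0, against 13.5 for strong 12 h only and 12.4 for strong 48 h only peaks. The motif shares were not compared at equal strength. For scale, 5.07% of the windows of the same length at 141293 start sites of protein-coding transcripts hold the core motif. The longer GLIS consensus was at 0.800% (0.636 to 0.994) of strong kept 12 h summits and at 2 of the 805 strong 12 h only and 0 of the 594 strong 48 h only summits (up to 0.619%).

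The Runt motif, which RUNX1 reads, was at 35.9% (32.6 to 39.3) of strong 12 h only summits and 24.6% (21.2 to 28.3) of strong 48 h only summits, with flanks at 17.0% and 17.8%. Kept strong summits stood at 27.1% (26.2 to 28.0) and 24.8% (24.0 to 25.7). Among distal summits alone the values were closer, at 37.3% (33.5 to 41.1) for 12 h only, 30.6% (25.7 to 35.9) for 48 h only and 36.4% (35.0 to 37.8) for kept 12 h peaks. By GC, the values for strong 12 h only, 48 h only and kept 12 h summits were 39.9% (34.3 to 45.6), 43.0% (32.4 to 54.2) and 44.1% (41.0 to 47.3) under 50% GC, and 35.6% (30.9 to 40.6), 32.4% (25.6 to 39.8) and 38.8% (37.0 to 40.5) between 50 and 60%, so that no difference between the times was detectable there. Between 60 and 70% GC the motif was at 28.2% of 85 strong 12 h only and 18.1% of 248 strong 48 h only summits. Over 70% GC it was at 14.3% of only 21 and 7.41% of 81. The 12 h only share was the higher in both of these classes, but the intervals overlapped. Over the whole lists the motif was at 22.1% (21.3 to 22.9) of 12 h only, 19.8% (19.1 to 20.4) of 48 h only and 24.0% (23.4 to 24.7) of kept 12 h summits. Start-site windows hold the Runt motif in 14.4%.

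The AP-1 motif was at 10.3% (8.30 to 12.6) of strong 12 h only and 6.57% (4.71 to 8.87) of strong 48 h only summits, and over the whole lists at 5.50% (5.08 to 5.94) and 3.50% (3.20 to 3.82). Kept 12 h summits held it in 6.99% (6.50 to 7.50) of strong peaks and 6.01% (5.66 to 6.38) of all peaks. In the distal summits of the whole lists it was at 5.97% (5.47 to 6.50) and 3.88% (3.50 to 4.29), and flanks gave 3.30% and 3.25%. In the whole lists it was at 5.51% (4.94 to 6.13) of 12 h only and 4.02% (3.48 to 4.6) of 48 h only summits under 50% GC, and at 6.59% (5.82 to 7.43) and 4.01% (3.45 to 4.63) between 50 and 60%. The intervals overlapped between 60 and 70% GC (3.26% and 2.75%) and over 70% (0.623% and 0.654%). Among strong summits the 12 h only share was also the higher between 50 and 60% GC (12.2% and 9.5%) and between 60 and 70% (8.24% and 4.84%). Under 50% GC the order was the opposite, at 9.15% (6.17 to 13.0) and 10.5% (4.90 to 18.9). Over 70% it was also the opposite, with the motif at 0 of 21 and 1 of 81 summits. The intervals of the times overlapped in each GC class of strong summits. Among strong distal summits the motif was at 10.4% (8.15 to 13.0) and 9.70% (6.73 to 13.4), and no difference was detectable there. Start-site windows hold it in 2.53%.

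The E-box CAGCTG, a form that E-proteins and their partners bind, showed little difference between the classes of strong peaks. It was at 18.4% (15.8 to 21.2) of 12 h only, 20.4% (17.2 to 23.8) of 48 h only and 20.2% (19.4 to 21.0) of kept 12 h summits, against 10.7%, 10.0% and 10.5% of flanks and 13.0% of start-site windows. The ETS motif CCGGAAGT was rarer. It was at 3 of the 805 strong 12 h only summits (0.373%, 0.0769 to 1.09), at 11 of the 594 strong 48 h only summits (1.85%, 0.928 to 3.29) and at 1.91% (1.65 to 2.19) of the strong kept 12 h summits, and start-site windows hold it in 3.46%. These 6 patterns do not contain each other, apart from the longer GLIS consensus, which contains the core. A match is a short string and not a measured contact.

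Changes within kept regions were followed in 15452 pairs, each a 12 h and a 48 h peak that were the strongest overlap of each other. The summits were within 200 bp of each other in 82.5% of the pairs, with a median gap of 33 bp. The 48 h peak was the wider in 60.5% of pairs, and the median ratio of widths was 1.11. Strength was compared by percent rank, the position in the own list by −log10 q as a percent of the list, where a low value is a strong peak. A positive shift means that a region moved towards the strong end at 48 h. Across pairs the ranks of the times had a Spearman correlation of 0.856, given as a description of regions that share the same 2 libraries. Of the strongest 100 peaks at 12 h, 70 were among the strongest 100 at 48 h, and of the strongest 1000, 810.

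The median shift was 1.33 points, with quartiles of -3.86 and 9.39. Percent rank also depends on the single-time peaks of a list, which were 39.5% of the 12 h and 45.6% of the 48 h list. All kept peaks had a median percent rank of 31.6 at 12 h and 27.8 at 48 h. A small positive shift can therefore come without a stronger peak, and this was not corrected for. Upward shifts of over 20 points were seen in 1790 pairs (11.6%) and downward ones in 1104 pairs (7.14%). The 8297 promoter pairs had a median shift of 3.08 points (2.86 to 3.31) and the 6965 distal pairs of -0.43 points (-0.60 to -0.28). Shifts of over 20 points went up in 13.0% and down in 4.72% of promoter pairs, and up in 9.61% and down in 10.1% of distal pairs. GC content again moved with the shift. Under 50% GC at the 12 h summit both kinds of regions had negative medians, -3.31 (-5.07 to -1.79) in promoters and -3.99 (-4.86 to -3.46) in distal regions. Between 60 and 70% GC both medians were positive, at 3.66 (3.21 to 3.98) and 1.41 (1.08 to 1.89). Between 50 and 60% GC the medians were 0.78 (0.14 to 1.58) and -1.49 (-1.75 to -1.17). Hence the span across GC classes within promoters was larger than the gap between promoter and distal regions in any GC class, and the part of GC content in the shift was not tested.

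The strongest kept regions were nearly the same at both times. After the intergenic chr20 region came an intron region on chromosome 5 (chr5:414839-417407 at 48 h, ranks 3 and 2), DENND4B (ranks 2 and 5), the start of HM13-AS1 (ranks 4 and 6), which lies beside the signal peptide peptidase gene HM13, and the start of BCL2L1 (ranks 8 and 3), which encodes the survival protein BCL-XL. The last 2 of these, together with the chr20 region and the start of FOXS1, lie between 30 and 31 Mb of chromosome 20. That single Mb held 5 of the strongest 100 peaks at 12 h and 4 at 48 h. Another Mb with 3 of the strongest 100 at each time held RUNX3 on chromosome 1.

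The 5 strongest 12 h only peaks by −log10 q were of another kind. They lay between genes near centromeres on chromosomes 19, 10, 2 and 11, had folds of only 1.53 to 2.26 with a −log10 q of 111 to 455, were 180 to 347 bp wide and overlapped no AML1-ETO peak. Peaks with a fold below 2 numbered 26 among 12 h only and 6 among 48 h only peaks. Beyond these, the 12 h only promoter peaks with at least 5-fold enrichment, named after their values were seen, were led by FAM157C (19.1-fold), LARP4B, MKNK1 (16.5-fold), the kinase of the translation factor eIF4E, and PARVG (17.0-fold), an integrin adaptor of blood cells. MAP2K2 (14.2-fold), the MAP kinase kinase MEK2, and IL1R2 (14.2-fold), the decoy receptor of interleukin 1, followed. LARP4B, MKNK1, PARVG and MAP2K2 had another promoter summit at 48 h (ranks 7075, 9106, 6128 and 25773), whereas IL1R2 had none at 48 h.

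Among 48 h only peaks, MTF2 had the best rank (3444 of 29784), followed by an intron of HPCAL1 (17.6-fold), a calcium sensor, and the start of WDR74 (17.2-fold), a ribosome biogenesis factor, where the annotated snRNA pseudogene RNU2-2P overlaps the peak and reads could be shared with related copies. The other 2 of the strongest 5 were introns named for ENSG00000258314 and a Y_RNA (16.8-fold each). Further promoters, named after their values were seen, were PRKCSH (16.4-fold), the glucosidase II beta subunit, HSPA9 (14.5-fold), the mitochondrial HSP70, and PDRG1 (10.8-fold), a prefoldin-like protein. WDR74, PRKCSH, HSPA9 and PDRG1 had no promoter summit at 12 h at all. MTF2 did have a weak one, at a percent rank of 90.2.

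The largest changes of rank within kept regions linked a weak and a strong peak. The 5 largest rises were at POMZP3 (rank 28004 to 5321, fold 2.84 to 12.4), a fusion of 2 duplicated genes whose reads can be shared with their copies, PYCR3 of proline synthesis (27731 to 7764), ZBTB8A, a zinc finger gene (27633 to 7720), and distal regions by the T cell receptor subunit gene CD3E (27142 to 7422) and by HOXA9 (27151 to 7698). The 5 largest falls were at the nucleoporin gene NUP85 (6306 to 29582, fold 10.9 to 3.13), in introns of SASH1 (6593 to 29002), FMNL2 (7591 to 29716) and ENSG00000291039 (7874 to 29686), and in an exon by ZC3H12A-DT (7725 to 29035). In promoters were 3 of the 5 rises and 1 of the 5 falls, beside 8297 of all 15452 pairs. In the NUP85 and HOXA9 pairs the summits were over 200 bp apart, so these pairs join different points of a region. PYCR3 had another, stronger promoter summit at 12 h (rank 9670), so its rise does not describe the whole promoter.

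Among the 8568 pairs that were strong at both times, the extreme shifts were named after their values were seen. The 5 largest rises were, in order, at the start of USP3-AS1 (rank 10888 to 3376, fold 5.44 to 17.2), between genes by ENSG00000279199 (10917 to 3495), in an intron of MAD1L1 of the spindle checkpoint (9657 to 2826), by COX4I2 (10299 to 3643), in the same Mb of chromosome 20 as BCL2L1, and at the start of NANS, the sialic acid synthase (9676 to 3114, fold 7.46 to 21.5). Falls were led by a distal region on chromosome 7 (rank 1378 to 9561, fold 33.6 to 7.52), introns of ARSG (2186 to 10039) and RIMS2 (2450 to 9499) and a region by RNU6-929P (2191 to 9860). The GC of the summit windows at 12 h was 61.5 to 72.5% in the 5 rises and 41.0 to 57.0% in the 5 falls.

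At the level of genes, 19222 protein-coding genes were examined for a summit within 1 kb of a start site. Both times had one at 7656 genes (39.8%), 12 h only at 814 (4.23%), 48 h only at 1390 (7.23%) and neither at 9362 (48.7%). With a strong summit at one time and none at the other there were 86 genes at 12 h and 189 at 48 h. The median percent rank of the genes with a summit at both times was 29.1 at 12 h and 23.3 at 48 h. The shares over all genes are the background for the lists that follow, which were compared by counts only.

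Of 19 myeloid transcription factor genes 16 had a summit at both times and none at a single time, against 39.8% of all genes. Percent ranks at 12 h and 48 h were 0.303 and 0.178 for RUNX3, a Runt factor, 4.02 and 2.2 for CEBPA, a regulator of granulocyte development, and 1.6 and 2.54 for SPI1, which encodes PU.1. CEBPD, IRF4 and KLF2 had none. Of 13 ETS factor genes 11 had summits at both times, with ELF2 at percent ranks of 1.17 and 1.02, and ERG and SPIB had none. Of 22 cell cycle and MYC genes 20 did, with the CDK inhibitor gene CDKN1B at 0.999 and 0.588. Of 12 AP-1 genes 11 did, with JUND at 0.289 and 0.151, and JUN had a summit at 12 h only (percent rank 26.4).

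The corepressor list held 10 of 13 genes with a summit at both times, led by the deacetylase gene HDAC1 (0.0821 and 0.0571), and GPS2, an NCoR complex subunit, had one at 48 h only (29.2). Of 7 E-protein and ID genes, 5 had a summit, in each case at both times. All 5 ranked better at 48 h, with ID2 at 8.47 and 6.02 and ID1 at 55.7 and 18.5. The median percent rank of all genes with a summit at both times was also better at 48 h (29.1 and 23.3). Percent ranks depend on the make-up of each list, as stated for the shifts. Of 18 monocyte surface and lysosome genes, 8 had a summit at both times, with the integrin gene ITGB2 at 0.653 and 1.59, and 3 at 48 h only, which were CSF2RB (45.4), CCR2 and FCGR2A.

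Genes of the megakaryocyte lineage, in which this fusion is found in patients, and of the GLIS2 pathway stood near the background. Of 21 megakaryocyte and stem cell genes 8 had a summit at both times (38.1%), led by the homeobox gene HHEX (1.41 and 1.15), and 13 had none, among them the platelet genes ITGA2B, GP9, PF4 and VWF. Of 20 Hedgehog, GLIS and BMP genes 8 had a summit at both times, led by the BMP inhibitor gene SMAD6 (0.667 and 0.507). The BMP receptor genes BMPR2 and BMPR1A had a weak summit at 12 h only (83.5) and 48 h only (84.6), respectively.

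Multicopy and clustered families were counted in the same way, beside 4.23% of all genes with a summit at 12 h only and 7.23% at 48 h only. No measure of read placement was computed for these families. Whether similar copies in some of these families bear on the counts was not tested. Of 76 cytosolic ribosomal protein genes 48 had a summit at both times, 10 at 12 h only (13.2%) and 8 at 48 h only (10.5%), and RPL6 was best ranked (5.89 and 4.88). Of 64 replication-dependent histone genes 32 had both, 9 had 12 h only (14.1%) and 5 had 48 h only (7.81%), with neighbouring genes sharing a summit. Of 240 zinc finger genes of chromosome 19, 45 had both (18.8%), 8 had 12 h only (3.33%), 11 had 48 h only (4.58%) and 176 had none. Of 39 HOX genes 9 had both, led by HOXA7 (13.2 and 7.77), and none had 12 h only. HOXC4 (percent rank 21.9) and HOXC5 had 48 h only, which is 5.13% of the list.

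Single loci, taken with 20 kb upstream, showed how peaks of the times corresponded. At SPI1 there were 9 peaks at each time, 7 of them kept in each list. The strongest, in an intron region with its summit at the same base at both times, had a 92.6-fold enrichment at 12 h and 118-fold at 48 h (ranks 188 and 123), and the SPI1 promoter peak had 64.4-fold and 46.2-fold (ranks 447 and 756). At CEBPB, a C/EBP factor gene, the promoter peak had 26.4-fold and 26.7-fold, and 3 further peaks upstream were called at 48 h only (folds 3.58 to 7.76). RUNX1 had 38 peaks at 12 h, 19 of them kept, and 30 at 48 h, 14 of them kept. Its best peak had rank 408 (67.5-fold) at 12 h and 1031 (45.1-fold) at 48 h. No peak was called at RUNX1T1, which encodes ETO, at either time.

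The genes that supply the parts of the fusion had more peaks at 48 h. CBFA2T3 had 6 peaks at 12 h and 14 at 48 h, and its best peak, upstream of the gene, had 48.5-fold and 66.1-fold enrichment. GLIS2 had 3 and 6 peaks, and its best peak, also upstream, had 78.3-fold and 78.8-fold. In each gene 1 of the 48 h only peaks lay almost wholly in coding sequence, which the introduced cDNA can share. It was 97.2% coding at CBFA2T3 (249 bp, 11.6-fold) and 100% coding at GLIS2 (457 bp, 4.74-fold), and no 12 h peak was at either place. Whether these reads came from the gene or from the vector was not tested.

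The RNA5S cluster, tandem copies of the 5S ribosomal RNA gene on chromosome 1, was covered over 70.2% of its length by 24 peaks at 12 h and over 96.3% by 6 peaks at 48 h, all kept. The best ranks were 1612 and 1289. Reads cannot be placed to single copies, so the smaller number at 48 h describes joined regions.

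AML1-ETO, the other fusion of the series, shares the ETO family part and has the Runt domain of RUNX1 in place of zinc fingers. Its peaks covered most kept ETO2-GLIS2 regions, with 91.3% at 12 h and 97.6% at 48 h of the kept 12 h peaks overlapped. AML1-ETO was found at 75.5% (its 12 h list) and 84.3% (its 48 h list) of the strong 12 h only regions, and at 80.8% and 95.6% of the strong 48 h only regions. The AML1-ETO lists are longer (70063 and 104677 peaks), and their length bears on these shares. The strong AML1-ETO peaks showed the same order of promoter shares by time, with 11.0% (6.84 to 16.5) of 182 at 12 h only and 26.2% (24.4 to 28.2) of 2093 at 48 h only, and 0.960% and 8.42% of its strong peaks were of a single time against 7.37% and 5.48% for ETO2-GLIS2.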

How the data were processed

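HA-tag ChIP-seq peak lists of ETO2-GLIS2 at 12 and 48 h (1 library each) were analysed, with the AML1-ETO lists for comparison. According to the labels and the methods of the study, reads were aligned to hg19 with Bowtie2 2.2.9 and the authors called peaks with MACS2 against input, without pooling of libraries. Its settings, duplicate removal and artefact filters are not given in the sources used here. The deposited lists give for each peak the fold enrichment at the summit (a ratio), −log10 values of its p-value and its q-value, a score that follows the −log10 q, and the summit as an offset from the start. The lowest deposited −log10 q was 1.31 in both ETO2-GLIS2 lists. The −log10 q depends on depth, which the lists do not hold, so peaks were ranked only within a list.

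Peaks on chromosomes 1 to 22 were overlapped by 1 bp with own code. It matched bedtools 2.31.1 on the ETO2-GLIS2 lists and the known answers on simulated data. Summits were placed on GENCODE release 44 lifted to GRCh37, in the order promoter (within 1 kb of any start site), exon, intron and intergenic. A peak bears the name of the gene with the nearest start site, protein-coding genes first within 1 kb. Motifs were counted on both strands in 200 bp windows and in flanks 1 kb away. Shares have exact 95% intervals (scipy 1.17.1) and medians have order-statistic intervals. Named peaks were the 5 strongest of each class, the 5 largest rises and falls among pairs whose better time reached a −log10 q of 10, a set of loci, and up to 4 members of each of 13 gene lists; other names were chosen after their values were seen and are marked so or serve as examples. One locus of the set is not reported here. Members, lists and loci were chosen with earlier results of these data known. No p-value was computed, since peaks do not replicate a condition.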

Additional observations from a re-analysis of the deposited data

Results flagged for a closer look

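Outside the chromosomes compared, the 12 h list holds 68 peaks and the 48 h list 60 peaks on sequences other than chromosomes 1 to 22, X and Y, such as unplaced contigs. They were counted because no comparison here used them, and no control ChIP library was there to set them against.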

How the results depend on the processing

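No paired analysis was possible because each time point has 1 ChIP library and the labels give no replicate numbers. The share of 12 h peaks kept, 60.5% in the whole lists, was 77.1% with both lists at a −log10 q of at least 5, 81.6% at 10, 92.6% for strong peaks against the whole other list, 92.8% for those with at least 5-fold enrichment, 59.8% with equal numbers, 82.3% with the 10000 and 85.0% with the 5000 strongest, 61.4% with peaks joined within 1 kb, 52.6% where 50% of the peak had to be covered, and 46.6% for summits within 200 bp. In the same order the share of 48 h peaks kept, 54.4%, was 69.5%, 80.5%, 94.5%, 94.5%, 57.1%, 80.7%, 83.4%, 59.3%, 44.2% and 43.8%. The 12 h share was the higher except for strong peaks against the whole other list.

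The promoter share of 12 h only peaks, 24.0%, was 29.2% with both lists at a −log10 q of at least 10, 42.7% with promoters of 3 kb, 18.6% with protein-coding start sites, 18.6% for strong peaks against the whole other list and 18.6% with 5-fold enrichment added. For 48 h only peaks, 30.6%, it was 60.6%, 52.8%, 25.1%, 44.4% and 44.6%, and 31.5% with equal numbers, so it was above the 12 h only share in each setting. For kept peaks by the 12 h summit, 54.6%, it was 56.7% at 10, 67.6% with 3 kb and 48.2% with protein-coding start sites. By the 48 h summit, 54.2%, it was 56.8%, 66.8% and 47.9%, and 58.3% for strong peaks with or without 5-fold enrichment. Median widths with both lists at 10 were 415 bp for 12 h only, 576 bp for 48 h only, 919 bp for kept 12 h and 1064 bp for kept 48 h peaks, and 286 bp for 48 h only peaks with equal numbers. The settings that join strong peaks to a whole list for promoter shares, and those with 5-fold enrichment, were chosen after seeing the data. Adding X and Y left the kept shares within their intervals.

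The 48 h share of promoters, GC content and sequencing depth differ between the same 2 libraries and cannot be told apart from time. Peaks near the detection limit of a list (a −log10 q close to 1.31) can be absent from the other list at little difference in signal, and this limits what a single-time peak shows.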

Other observations

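Sharing also varied between chromosomes, with values from the whole lists. Kept 12 h peaks ranged from 53.2% (49.3 to 57.0) on chromosome 13 to 69.8% (67.5 to 72.1) on chromosome 19. The number of 48 h peaks for each 12 h peak ran from 0.850 on chromosome 18 (300 against 353 peaks) to 1.18 on chromosome 21 (613 against 521 peaks). Chromosome 18 was the only one where a larger share of 48 h peaks (67.7%, 62.0 to 72.9) than of 12 h peaks (59.5%, 54.2 to 64.7) was kept, and these intervals overlap.

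Strong peaks of a single time also differed in how far they lay from binding at the other time. The median gap was 10.5 kb for the 805 strong 12 h only peaks and 4.86 kb for the 594 strong 48 h only peaks, and 15.9% (13.4 to 18.6) and 27.3% (23.7 to 31.0) of them were within 1 kb of a peak of the other time. The 48 h list is the longer, so the 12 h only peaks had more peaks to lie near.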
